A study of Drosophila melanogaster with 6 samples.

Results

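Salivary gland glue protein genes were examined in whole Drosophila melanogaster prepupae that carried the L1 allele of Sox14 on both homologues (sox14L1/sox14L1 in a w1118 background), set against w1118 prepupae. The 8 genes were Sgs1, Sgs3, Sgs4, Sgs5, Sgs5bis, Sgs7, Sgs8 and Pig1, chosen by name, and each had 1 single-gene probe set among the 18769 tested. All animals were taken at 0 h, immediately after pupariation, and each of the 3 mutant and 3 control arrays held RNA of 10 pooled prepupae of mixed tissues. Values are log2 expression values on which an increase of 1 is a doubling. A change is mutant minus control with its standard error, and a gene is called where limma's adjusted p is under 0.05. Nothing in the labels says that pools of 1 genotype were grown separately, so p-values measure the spread between these pools, which may be technical, and the number of arrays limits the precision.

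Glue proteins are made in the larval salivary gland late in the last larval instar, stored in secretory granules and expelled at pupariation, where they fix the puparium to its support. The steroid ecdysone drives release of the glue and, as its titre peaks before pupariation, shuts down transcription of the glue genes. Sox14 encodes an HMG-box transcription factor that is itself induced by ecdysone. In whole animals, fewer salivary gland cells and less glue RNA per cell cannot be told apart. The labels give only 0 h for every pool, so differences in stage between pools could not be checked.

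The genes lie at 4 loci of the Release 6 assembly. Sgs8 (chr3L:11508967-11509394), Sgs7 (chr3L:11509861-11510247) and Sgs3 (chr3L:11512221-11513402) form a cluster in which 466 bases separate Sgs8 from Sgs7 and 1973 separate Sgs7 from Sgs3. Sgs5bis (chr3R:17594386-17595057) and Sgs5 (chr3R:17595362-17596112) are 304 bases apart. Pig1 (chrX:3248600-3249289) and Sgs4 (chrX:3250089-3251040) are 799 bases apart, both inside the span of dnc, a gene for a cyclic AMP phosphodiesterase. Sgs1 (chr2L:4937409-4941423) stands alone and is the only member on chromosome 2, which also carries Sox14. Sgs1 is on arm 2L and Sox14 on arm 2R. With 1 mutant genotype set against w1118, a strain difference and the loss of Sox14 cannot be told apart for any of the 8 genes. For Sgs1 such a difference could also be linked to Sox14.

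Mutant array 2 stood apart in the glue genes and must be read beside every value. It gave the lowest mutant value of all 8 glue genes. Its difference from the mean of mutant arrays 1 and 3 was -3.60 for Sgs3, -3.47 for Sgs5bis and -2.83 for Sgs5, and these were the 3 lowest such differences among all 18769 probe sets. Sgs4 (-2.13), Sgs1 (-2.02), Sgs8 (-1.72) and Sgs7 (-1.47) ranked 7, 9, 13 and 20 from the lowest. Pig1 was the closest to the other arrays, at -0.47 and rank 187. On that array 40 probe sets lay more than 1 below the other mutant arrays, 0.213% of all, and 7 of these 40 were glue genes.

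The low values were not a feature of that array as a whole. Its median difference over all probe sets from the other mutant arrays was -0.0003, and its mean absolute deviation from the group mean, 0.0884, was the smallest of the 6 arrays, where the others had 0.101 to 0.121. The salivary gland markers fkh, sage, PH4alphaSG1 and PH4alphaSG2 averaged 7.20 on it, against 7.29 on each of the other mutant arrays. Their median difference was -0.03, with -0.02 for fkh, -0.32 for sage, 0.02 for PH4alphaSG1 and -0.05 for PH4alphaSG2. PH4alphaSG1 was dim, at 4.63 to 4.78 on the mutant arrays, and PH4alphaSG2, at 6.05 to 6.33, lay below their medians of 7.05 to 7.07. Eig71Ee, whose product the gland also secretes, differed by -2.12 on mutant array 2, rank 8 from the lowest. Over the list of 5 other secretory gland genes that holds Eig71Ee, the median of this difference was -0.20. Whether that pool held less gland tissue was not tested. Mutant array 1 stood apart in another way, with 18S rRNA control probe sets at 12.2 against 7.56 to 7.94 on the other 5 arrays. It was not low in any glue gene.

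**Figure D1:**
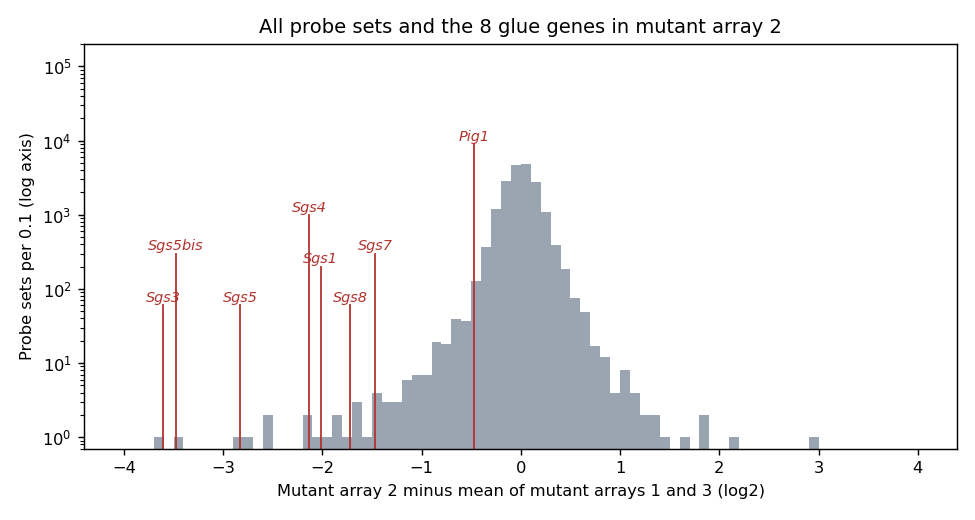
Number of probe sets (log axis) by their difference between mutant array 2 and the mean of mutant arrays 1 and 3 (log2). Red lines mark the 8 glue genes, with line heights chosen only for legibility. Sgs3, Sgs5bis and Sgs5 lie at the far low end, between -3.60 and -2.83, and Pig1 lies at -0.47 beside the bulk.

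Of the 8 glue probe sets, 1 rose (Sgs4) and 1 fell (Pig1) with all 6 arrays. That is 25.0% called, where 19.1% of all probe sets were called, 8.64% higher and 10.4% lower, so the share of glue genes called was near the background. Without mutant array 2, 2 rose (Sgs4, Sgs1) and 2 fell (Sgs8, Pig1). That is 50.0%, where 13.3% of all probe sets were called, 6.22% higher and 7.06% lower. That array was singled out by its glue values and held the lowest mutant value of all 8 genes. Leaving it out thus narrows the spread of the glue genes and raises each of their changes by construction. The shares over all probe sets carry no such selection. Without mutant array 1, mutant array 3, control array 1 or control array 3, 0 glue genes were called higher and 1 lower, and without control array 2, 1 was called higher and 1 lower. The median change of the 8 was -0.51 with all arrays and 0.24 without mutant array 2, where the medians over all probe sets were -0.03 and -0.03. Mutant and control values did not overlap for 4 of the 8, against 36.2% of all probe sets, and for 7 of the 8 without mutant array 2, against 42.3% of all probe sets.

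**Figure D2:**
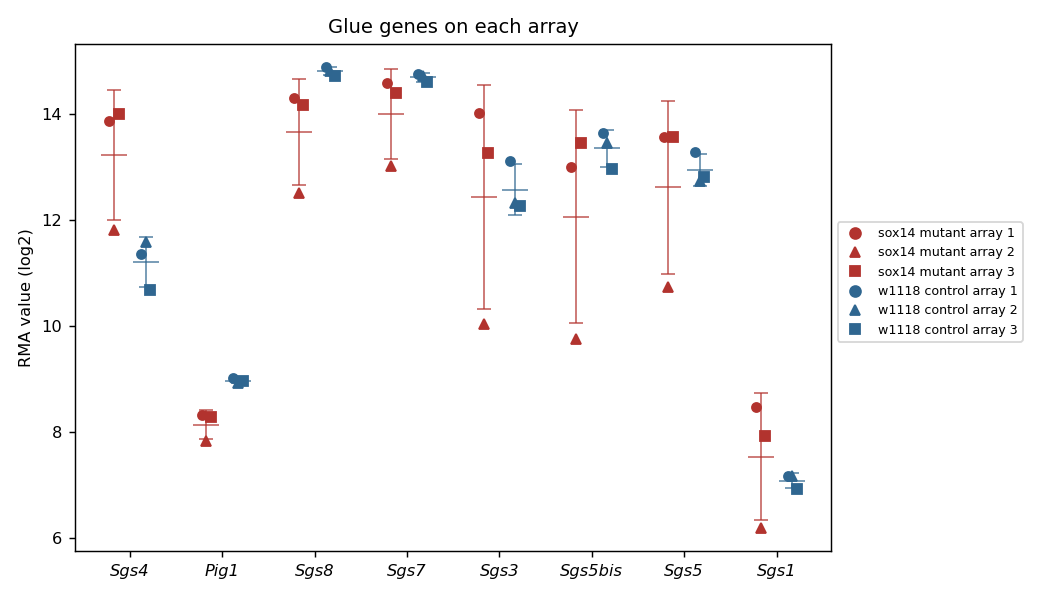
RMA values (log2) of the 8 glue genes on each array, with mutant arrays in red to the left of control arrays in blue. Horizontal bars are means and error bars SD (n = 3 each), and symbols give the array number of the labels. The triangle of mutant array 2 is the lowest mutant value for every gene, and Sgs4 is the only gene with all 3 mutant arrays above the controls.

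Sgs4, which encodes a large glue protein with a repeated, heavily glycosylated stretch, read 13.87, 11.81 and 14.01 on mutant arrays 1 to 3, against 11.36, 11.58 and 10.67 on control arrays 1 to 3. All 3 mutant arrays lay above all 3 control arrays, although mutant array 2 cleared the highest control only narrowly. Sgs4 averaged 13.23 ± 1.23 in the mutant and 11.20 ± 0.47 in the control (SD, n = 3 each). It rose by 2.03 ± 0.53, or 4.08-fold (adjusted p = 0.0295). Without mutant array 2 the rise was 2.74 ± 0.24, or 6.68-fold (adjusted p = 0.000272). The call did not survive the removal of mutant array 1 (1.71, adjusted p = 0.104), mutant array 3 (1.64, adjusted p = 0.0859), control array 1 (2.11, adjusted p = 0.0628) or control array 3 (1.77, adjusted p = 0.118), with the direction kept each time.

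Pig1, a pre-intermoult gene next to Sgs4, went the opposite way. It read 8.31, 7.82 and 8.28 on the mutant arrays, against 9.02, 8.92 and 8.95 on the control arrays. The groups did not overlap and the control arrays were within 0.1 of each other. Pig1 averaged 8.14 ± 0.27 in the mutant and 8.97 ± 0.05 in the control (SD, n = 3 each), a fall of -0.83 ± 0.14, to 0.563 of the control (adjusted p = 0.00334). It was the glue gene least affected by mutant array 2, without which the change was -0.67 ± 0.11 (adjusted p = 0.00488). The call held under all 12 alternative settings, with adjusted p from 0.00194 to 0.0162.

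Sgs8 and Sgs7, neighbours that encode small, cysteine-rich glue proteins, both read lower in the mutant. Sgs8 had 14.31, 12.52 and 14.18 on the mutant arrays, against 14.89, 14.82 and 14.73 on the control arrays. The 3 mutant arrays were all below the controls, and mutant array 2 was far below. Its change was -1.14 ± 0.41 with all arrays, which did not pass the test (adjusted p = 0.0903), and it fell by 0.57 ± 0.11 without mutant array 2 (adjusted p = 0.0148). Sgs7 had 14.59, 13.03 and 14.40 on the mutant arrays, against 14.77, 14.72 and 14.61 on the control arrays. These groups did not overlap, but mutant array 1 lay only just under the lowest control. The change in Sgs7 was -0.70 ± 0.35 (adjusted p = 0.226) and, without mutant array 2, -0.21 ± 0.12 (adjusted p = 0.344). In the control, Sgs8 lay 0.54 to 0.64 and Sgs7 0.66 to 0.77 below the highest value of their array. On mutant arrays 1 and 3, Sgs8 lay 0.97 and 1.20 and Sgs7 0.68 and 0.98 below it. In such a range array signals can saturate and changes be compressed, and whether they were saturated was not tested.

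Sgs3, at the far end of the same cluster, encodes a long mucin-like glue protein. It read 14.02, 10.04 and 13.26 on the mutant arrays, against 13.13, 12.32 and 12.27 on the control arrays. The genotypes overlapped because mutant array 2 lay below every control and the other mutant arrays above every control. Sgs3 averaged 12.44 ± 2.11 in the mutant and 12.57 ± 0.48 in the control (SD, n = 3 each), with a change of -0.13 ± 0.87 (adjusted p = 0.942). Without mutant array 2 the direction turned, to 1.07 ± 0.30, just short of the threshold (adjusted p = 0.0577). Mutant array 2 read 12.2 times lower for Sgs3 than the mean of the other mutant arrays.

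Sgs5 and its neighbour Sgs5bis, which encodes a related secreted protein, were both far lower on mutant array 2 than on any other array. Sgs5 had 13.57, 10.74 and 13.57 on the mutant arrays, against 13.29, 12.74 and 12.82 on the control arrays. Mutant arrays 1 and 3 were above all controls and array 2 below them. Its change was -0.33 ± 0.67 with all arrays (adjusted p = 0.799) and 0.62 ± 0.17 without mutant array 2 (adjusted p = 0.0548). Sgs5bis had 13.00, 9.75 and 13.45 on the mutant arrays, against 13.64, 13.46 and 12.97 on the control arrays. Apart from array 2, the mutant values lay within the control range. Its change was -1.29 ± 0.82 (adjusted p = 0.342), and -0.13 ± 0.22 without mutant array 2 (adjusted p = 0.779).

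Sgs1 encodes the longest of the mucin-like glue proteins, and its gene spans 4015 bases. Its probe set read 8.48, 6.18 and 7.93 on the mutant arrays, against 7.16, 7.16 and 6.92 on the control arrays. As with Sgs3 and Sgs5, mutant arrays 1 and 3 exceeded every control and array 2 was under every control. The change was 0.45 ± 0.49 with all arrays (adjusted p = 0.601). Without mutant array 2, Sgs1 rose by 1.12 ± 0.18, or 2.18-fold (adjusted p = 0.00479). It was not called under the other 11 alternative settings, and the change was -0.054 with array weights and -0.0234 without mutant array 1. The Sgs1 probe set was of middling brightness, at the 48.7 to 51.7 percentile of probe sets on the control arrays.

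**Figure D3:**
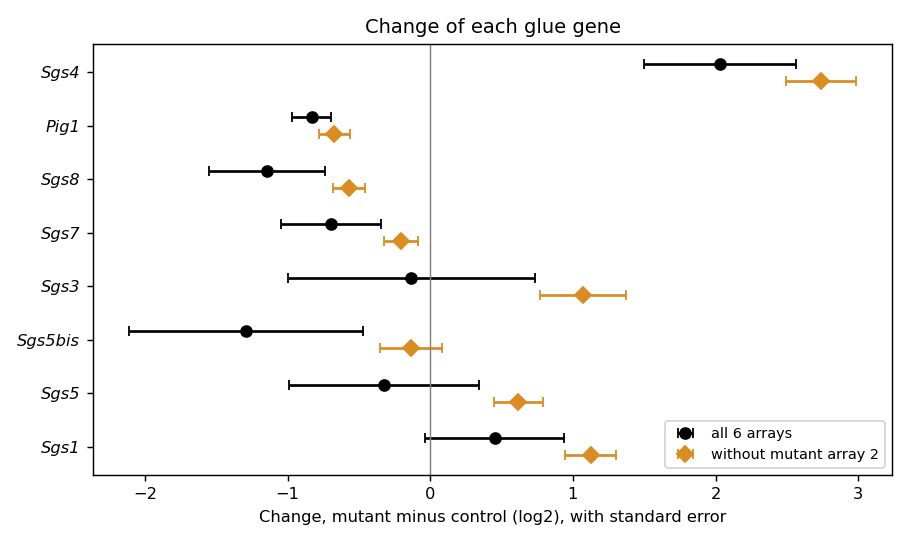
Change of each glue gene, mutant minus control (log2), with its standard error from limma. Black circles use all 6 arrays and orange diamonds leave out mutant array 2. Sgs4 stays above 0 and Pig1, Sgs8, Sgs7 and Sgs5bis below 0 in both, whereas Sgs3 and Sgs5 change sign.

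The spread between pools was wider in the mutant than in the control for all 8 genes. The mutant SD includes mutant array 2, which was singled out by its glue values, so it largely restates that array's low values. Sgs5 read 13.57 on both mutant arrays 1 and 3, and its SD came from mutant array 2. The SD between mutant arrays was over 1 for Sgs1, Sgs3, Sgs4, Sgs5 and Sgs5bis, and for only 46 of 18769 probe sets in all, 0.245%. In the control the SD of the glue genes lay between 0.05 for Pig1 and 0.48 for Sgs3. Over all probe sets the median SD was 0.112 between mutant arrays and 0.129 between control arrays. On mutant array 2 most glue genes were still among the brighter probe sets: Sgs7 was at the 98.5 percentile of its array and Sgs3 at the 85.4 percentile, with Sgs1 at the 40.6 percentile.

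Differences between neighbouring glue genes on the same array were then compared, since RNA of both genes comes from the same pool. These 4 pairs were chosen after the values were seen and are described without a test. The offset between 2 probe sets is arbitrary, so the sign cannot be read. The shift between genotypes can be read only where neither signal is compressed. Sgs8 minus Sgs7 was -0.28, -0.51 and -0.22 on the mutant arrays, against 0.12, 0.10 and 0.12 on the control arrays. The groups did not overlap, and mutant array 2 was the lowest of the mutant arrays. The difference between genotypes was -0.45 with all arrays and -0.36 without mutant array 2. Both genes read near the top of the control arrays and of mutant arrays 1 and 3, where signals can saturate. How far unequal compression contributes to this shift was not tested.

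Sgs5 minus Sgs5bis was 0.57, 0.99 and 0.12 on the mutant arrays, against -0.35, -0.72 and -0.15 on the control arrays. The groups did not overlap, with a difference between genotypes of 0.97 with all arrays and 0.75 without mutant array 2. Sgs4 minus Pig1 was 5.57, 3.99 and 5.73 on the mutant arrays, against 2.34, 2.66 and 1.72 on the control arrays. The groups did not overlap, and the difference between genotypes was 2.86, or 3.41 without mutant array 2. That lack of overlap was fixed by the single genes: on every mutant array Sgs4 lay above all controls and Pig1 below them. For Sgs3 minus Sgs7 the groups overlapped, at -0.57, -2.99 and -1.13 on the mutant arrays, against -1.65, -2.41 and -2.34 on the control arrays.

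**Figure D4:**
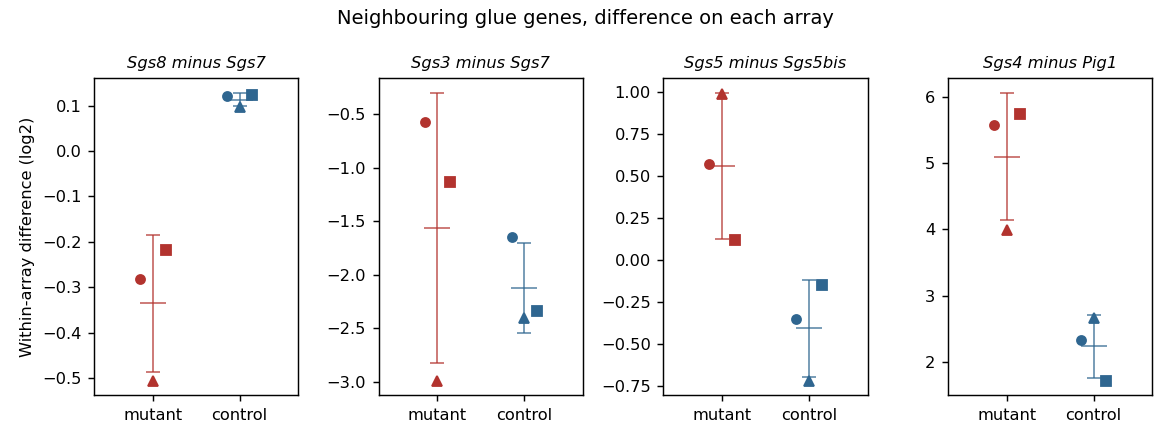
Difference between 2 neighbouring glue genes on each array (log2), mutant in red to the left of control in blue, with means and SD (n = 3 each) and a separate vertical scale for each pair. Circles, triangles and squares are arrays 1, 2 and 3. Mutant and control do not overlap for Sgs8 minus Sgs7, Sgs5 minus Sgs5bis and Sgs4 minus Pig1, and overlap for Sgs3 minus Sgs7. For Sgs4 minus Pig1 the lack of overlap follows from the values of each gene alone. Sgs8 and Sgs7 read near the top of the control arrays and of mutant arrays 1 and 3, where signals can saturate.

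Likeness to a glue gene was measured as the root mean square difference of 2 centred log2 profiles over the 6 arrays. The genes found were chosen by these values, so their levels are a description with no test. Closest to Sgs4 were CG15404 (0.25) and CG31698 (0.31), which lie side by side at chr2L:3173972-3174504 and chr2L:3173205-3173840. CG15404 read 13.04, 11.62 and 13.41 on the mutant arrays, against 10.76, 10.60 and 10.22 on the control arrays, a difference of 2.16 ± 0.40. CG31698 read 13.14, 11.36 and 13.58 on the mutant arrays, against 11.09, 11.04 and 10.92 on the control arrays, a difference of 1.67 ± 0.48. The order of arrays in both follows from the choice by likeness to Sgs4.

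Eig71Ee, a late puff gene whose product is also secreted by the salivary gland, was the closest gene that is not a glue gene to Sgs3 (0.70), Sgs5 (0.37), Sgs5bis (0.53) and Sgs8 (0.29). It had 12.73, 10.80 and 13.11 on the mutant arrays, against 13.16, 13.05 and 12.70 on the control arrays. Only mutant array 2 was outside the range of the others by a wide margin, with a difference of -2.12 from the other mutant arrays, and the change was -0.75 ± 0.51. The second closest genes outside the list were Muc96D for Sgs3 (0.93), yin, a peptide transporter gene, for Sgs5 (0.66), CG34227 for Sgs5bis (0.75) and CG6283 for Sgs8 (0.30).

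For Sgs1 the closest were both probe sets of Muc96D, a mucin gene, at 0.37 and 0.38. The first read 11.16, 9.13 and 10.41 on the mutant arrays, against 9.32, 9.21 and 8.79 on the control arrays, with mutant array 2 within the control range. Its change was 1.13 ± 0.43, and 1.68 without mutant array 2. Sgs7 was most like CG12057 (0.23), with CG7402 (0.25) the second gene outside the list. Pig1 was most like PPO1, a prophenoloxidase gene (0.05), and CG14852 (0.06), both with a smaller shortfall on mutant array 2 than the Sgs genes.

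**Figure D5:**
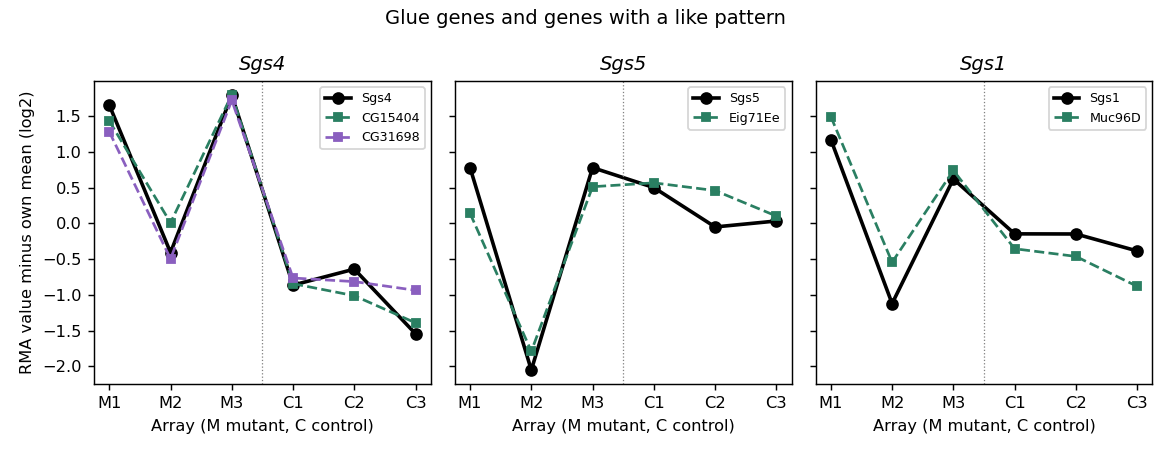
Centred RMA values (log2) of Sgs4, Sgs5 and Sgs1 (black, solid) and of genes with a like profile (dashed, coloured) over the 3 mutant arrays (M) and the 3 control arrays (C). Muc96D is shown by the closer of its 2 probe sets. CG15404 and CG31698 have root mean square differences of 0.25 and 0.31 from Sgs4, and Eig71Ee shares the low value of Sgs5 on mutant array 2.

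Measured genes around the loci did not share the low values of mutant array 2, although dnc around Sgs4 and hoe1 near Sgs1 were called higher. At the Sgs3, Sgs7 and Sgs8 cluster, CG33272, which lies within it, had a change of -0.002 ± 0.23 (adjusted p = 0.997), CG7512 0.22 ± 0.14 (adjusted p = 0.327), Mob2 0.17 (adjusted p = 0.658), Vha16-2 0.12 (adjusted p = 0.643) and Vha16-3 -0.45 (adjusted p = 0.0727). Beside Sgs5, CG7606, which starts 423 bases past its end, was bright at 14.27, 14.07 and 14.30 on the mutant arrays, against 14.29, 14.34 and 14.23 on the control arrays, and mutant array 2 differed from the other mutant arrays by only -0.21. Hmx, Prx3 and sll, the other measured genes there, were not called, with changes of -0.02, -0.17 and 0.004.

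Near Sgs1, hoe1 rose by 0.48 ± 0.12 (adjusted p = 0.0238), and hoe2 (0.21), synr (0.05) and mRpL24 (-0.17) were not called. Around Sgs4 and Pig1, dnc rose by 0.62 ± 0.17 (adjusted p = 0.0323), while ng4 (0.02), ng1 (-0.10), CG10793 (-0.14) and CG12535 (-0.24) were not called. Over all these neighbours, mutant array 2 differed from the other mutant arrays by -0.30 to 0.21, against -3.60 to -0.47 for the glue genes.

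Lists of genes that act with the glue genes were counted on the brightest probe set of each gene, of which 24.7% were called over 11981 genes, 11.3% higher and 13.4% lower. Of the 5 other secretory genes of the gland, none rose or fell in limma, and 0 had an unadjusted p under 0.05. This list holds Eig71Ee and the new glue genes ng1, ng2, ng3 and ng4, which lie on the X near Sgs4 and read between 3.66 and 6.57 on all arrays. Eig71Ee belongs to the Eig71E cluster of late puff genes and is counted only with the secretory genes. Of the 8 other measured late puff genes of that cluster, 3 fell and none rose, with a median change of -0.82: Eig71Ei (-2.22 ± 0.58, adjusted p = 0.0296), Eig71Ek (-1.43 ± 0.19, adjusted p = 0.000945) and Eig71Ef (-1.16 ± 0.23, adjusted p = 0.00886). On mutant array 2 these 3 differed from the other mutant arrays by -0.67, -0.01 and -0.51, the lowest mutant value being that of array 3 for Eig71Ei, array 1 for Eig71Ek and array 2 for Eig71Ef. The Eig71Ei call was lost under 5 of 12 alternative settings, mutant array 2 left out among them (adjusted p = 0.0936).

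Of 7 measured transcription factors of the gland and of glue genes, 1 rose and 2 fell, with a median change of 0.16. The fork head gene fkh, which activates glue genes, read 8.63, 8.70 and 8.81 on the mutant arrays, against 8.96, 9.14 and 9.25 on the control arrays, a fall of -0.41 ± 0.10 (adjusted p = 0.0281). The bHLH gene sage, its partner in the gland, read 9.41, 9.22 and 9.68 on the mutant arrays, against 9.11, 8.87 and 8.73 on the control arrays, a rise of 0.53 ± 0.14 (adjusted p = 0.0337). For both genes the mutant and control arrays did not overlap, but the fkh call was lost under 4 of 12 alternative settings, mutant array 2 left out among them (adjusted p = 0.0909), and the sage call under 6 of 12. usp, which encodes the partner of the ecdysone receptor, fell by 1.00 ± 0.11 (adjusted p = 0.000358) and stayed called under all 12. br, which encodes the Broad factors needed for glue expression, was 0.41 higher in the mutant without passing the test (adjusted p = 0.0590). That value is of the brightest of its 5 probe sets, and the others are not described here. EcR was likewise higher without passing the test (0.41, adjusted p = 0.0967).

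Of 4 other measured salivary gland genes, none rose or fell in limma, and 0 had an unadjusted p under 0.05, with a median change of 0.14: Tpst, which encodes a tyrosylprotein sulfotransferase (0.17 ± 0.11, adjusted p = 0.379), and Papss, which encodes the enzyme that makes the sulfate donor (-0.09 ± 0.15, adjusted p = 0.758), had the highest means. Exocytosis genes carry glue granules to the cell surface. Of 10 measured exocytosis genes, Ykt6, a SNARE gene, rose by 1.47 ± 0.15 (adjusted p = 0.000188), and the exocyst genes Sec8 (-0.68 ± 0.09, adjusted p = 0.00110) and Sec5 (-0.36 ± 0.10, adjusted p = 0.0346) fell, with a median of -0.07. The Sec5 call was lost under 6 of 12 alternative settings.

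Of 10 measured genes for the lysosomal breakdown of unused granules (crinophagy), 1 rose and 2 fell, with a median of -0.15. The SNARE gene Snap29 fell by 1.07 ± 0.09 (adjusted p = 7.87e-05) and the small GTPase gene Arl8 by 0.69 ± 0.17 (adjusted p = 0.0264), whereas lt, which encodes a Vps41 subunit of the tethering complex HOPS, rose by 0.63 ± 0.13 (adjusted p = 0.0115). The Arl8 call was lost without control array 1 or control array 3, at adjusted p of up to 0.0901. In each of these 2 lists 3 of 10 genes were called, near the background of 24.7%. These genes are used in many tissues, so in whole prepupae their values do not report on the gland alone.

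Sox14 itself fell, with 10.34, 10.67 and 10.73 on the mutant arrays, against 11.40, 11.60 and 11.72 on the control arrays (-0.99 ± 0.13, adjusted p = 0.00101). Mutant array 2 was not an exception for Sox14. The sources used here do not say whether the probe set reports the part altered by the L1 allele.

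Midgut and muscle markers and the single epidermal marker moved with genotype, whereas only some of those of fat body and neurons were called. An average over a few markers can rest on 1 gene. The 4 measured salivary gland markers averaged 7.20 to 7.29 on the mutant arrays, against 7.11 to 7.17 on the control arrays, with 1 rising (sage) and 1 falling (fkh). All 5 measured midgut markers rose, with averages of 12.74 to 12.99 on the mutant arrays, against 9.30 to 9.48 on the control arrays, and all 3 muscle markers rose, with averages of 10.76 to 10.95 on the mutant arrays, against 9.33 to 9.55 on the control arrays. Of 4 fat body markers 1 fell, with averages of 14.74 to 14.80 on the mutant arrays, against 15.05 to 15.10 on the control arrays. The single epidermal marker rose, at 9.09 to 9.21 on the mutant arrays, against 7.60 to 8.22 on the control arrays, and of 3 neuronal markers 1 rose and 1 fell, with averages of 8.20 to 8.31 on the mutant arrays, against 7.94 to 7.97 on the control arrays. RMA values carry no detection call, so none of these markers can be called absent. PH4alphaSG1 was the dimmest gland marker, at 4.78, 4.73 and 4.63 on the mutant arrays, against 4.52, 4.66 and 4.64 on the control arrays. The part of these shifts in the glue values was not tested.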

How the data were processed

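Affymetrix Drosophila Genome 2.0 arrays measured biotin-labelled RNA of whole prepupae, 3 arrays per genotype. The values used are the authors' deposited log2 values. Per the submitters' processing notes they were made with RMA in version 1.1 of Affymetrix Expression Console. RMA subtracts background, equalises the distribution between arrays and gives 1 value per probe set, so values show relative amounts. The array's genome build is not stated in the labels. Of 18952 probe sets, 183 Affymetrix controls were left out. Symbols came from the platform annotation, and positions from RefSeq (Release 6 plus ISO1 MT) by gene identifier.

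The test was limma 3.58.1 (lmFit and eBayes, R 4.3.3), 2-sided, on all 18769 remaining probe sets with the p-values adjusted by Benjamini-Hochberg and a threshold of 0.05. Differences between neighbouring glue genes were described without a test. In a simulation with 200 planted changes, 18% of those of 0.5 (log2) were found, 78% of those of 1 and 98% of those of 2 and of 3. The changes were planted in probe sets picked at random, and the median SD between mutant arrays was 0.112 over all probe sets. These shares do not apply to Sgs1, Sgs3, Sgs4, Sgs5 and Sgs5bis, whose SD between mutant arrays was over 1. Nor do they apply to Sgs8 and Sgs7, with 0.996 and 0.853, and the SD of Pig1, 0.274, was also above that median. All other simulated probe sets had no change, whereas 19.1% of the real ones were called. The adjusted p therefore cuts at a different level in the simulation. The members and lists were chosen with earlier results of these data known. The text names every glue gene, up to 4 called genes per list (2 of the highest mean where none was called), the 2 most alike genes outside the members, and the nearest measured genes. Genes named outside that rule, after their values were seen, are CG33272, dnc, br, EcR and, at their own lists, ng1 to ng4. The other settings were the replicate block, median centring, quantile normalisation, trended robust variance, array weights, no dim probe sets (lowest 40%), a threshold of 0.01, and each array left out. Promoter sequences were not analysed here.

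Replicate numbers did not pair the arrays: correlations of same-numbered arrays' deviations were 0.173, -0.101 and -0.0234.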

Additional observations from a re-analysis of the deposited data

How the results depend on the processing

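Sgs4 stayed above 0 and Pig1, Sgs5bis, Sgs7 and Sgs8 below 0 under all 12 settings run, and Pig1 stayed called in each. Sgs4 was not called with trended robust variance (2.03, adjusted p = 0.141) or array weights (1.49, adjusted p = 0.116), and Sgs8 was called with array weights (-1.55, adjusted p = 0.0427). Sgs1 turned to -0.054 with array weights and -0.0234 without mutant array 1. Sgs3 turned to 1.07 without mutant array 2 and 0.14 without control array 1, and Sgs5 to 0.62 without mutant array 2. The cause of these shifts was not tested. Array weights gave mutant array 2 the highest weight, 2.16.

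With 1 array left out at a time, changes ranged from 1.64 to 2.74 for Sgs4, -0.92 to -0.67 for Pig1, -1.46 to -0.57 for Sgs8, -0.99 to -0.21 for Sgs7, -0.92 to 1.07 for Sgs3, -1.99 to -0.13 for Sgs5bis, -0.80 to 0.62 for Sgs5 and -0.02 to 1.12 for Sgs1. Glue genes called higher ranged from 0 to 2 and lower from 1 to 2. Gland transcription factors called ranged from 0 to 1 higher and 1 to 2 lower, late puff genes from 2 to 5 lower, exocytosis genes from 1 to 2 lower and crinophagy genes from 1 to 4 lower. All calls ranged from 2493 to 3268, against 3577 with 6 arrays.

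No glue gene was called higher with trended robust variance, array weights or a threshold of 0.01 (0 each, against 1). In all, 3582, 3986 and 1963 probe sets were called under these settings, in that order. Array weights called 2 glue genes, 5 late puff genes and 4 crinophagy genes lower. Gland transcription factors called higher numbered 2 with trended robust variance or without the dimmest 40% of probe sets. With the replicate block, the numbers share only a label: 3276 probe sets were called, Sgs4 (adjusted p = 0.0393) and Pig1 (adjusted p = 0.00444) among them, with 0 gland transcription factors higher and 1 exocytosis gene lower. Averaging over probe sets was not run for glue genes because each has 1.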
